A study of Homo sapiens with 6 samples.

Results

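The genes described here are 9 components of the extrinsic, or death receptor, route to apoptosis: the receptors FAS, TNFRSF10A, TNFRSF10B and TNFRSF1A, the adaptors FADD and TRADD, the kinase RIPK1, the initiator protease CASP8 and its inhibitor CFLAR. Their rows were taken by gene symbol from the 58735 genes of the deposited table, and each symbol matched 1 gene. Their transcripts were measured by poly-A RNA-seq in A375, a human malignant melanoma cell line. The libraries were 3 of A375 cells treated with PAL, a Ringer's lactate solution activated by low-temperature plasma, and 3 of control A375 cells without it. All 6 libraries come from this single line, and no genotype other than the line is labelled. The sources used here give neither dose, exposure time nor the control's medium. The PAL columns of the table carry the number 64, which the sources used here do not explain. They also do not say that replicates were separate cultures, so the p-values cover the spread among these 6 libraries alone, and that spread may be technical.

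Death receptors are membrane proteins of the tumour necrosis factor (TNF) receptor superfamily whose cytoplasmic death domain gathers adaptors when a ligand binds. FAS and the TRAIL receptors recruit FADD directly, FADD recruits caspase 8, and clustered caspase 8 cuts itself into active form and then cuts the executioner caspases. The TNF receptor TNFRSF1A instead recruits TRADD and RIPK1 into a complex held together by ubiquitin chains that drives NF-kappaB signalling, and FADD and caspase 8 join a later, cytoplasmic complex. CFLAR encodes c-FLIP, a caspase 8 relative without protease activity that competes for FADD. RNA levels say nothing of the cleavage or assembly of these proteins.

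Assigned reads numbered 16053009 to 17711389 in PAL libraries and 15064971 to 16081733 in control libraries. Of 11 melanocyte and melanoma markers, 6 reached 1 FPKM (fragments per kilobase of gene length, scaled by library size) in every library. They were MITF, SOX10, S100B, S100A1, CSPG4 and PRAME. PMEL, MLANA, DCT and TYRP1 did not, and TYR, the tyrosinase of pigment synthesis, was listed at 0. The summed level of these 11 markers was 200 to 202 FPKM in PAL libraries and 181 to 188 FPKM in control libraries. Of the markers of other cell types, 2 of 4 of keratinocytes (KRT14 and KRT10), 1 of 5 of fibroblasts (LUM), 1 of 5 of immune cells (LYZ) and 0 of 3 of endothelium reached 1 FPKM throughout. The keratinocyte sum was 30.8 to 33.4 FPKM in PAL libraries and 31.5 to 36.4 FPKM in control libraries, the fibroblast sum was 3.11 to 4.47 FPKM in PAL and 4.15 to 4.70 FPKM in control, the immune sum was 3.37 to 4.54 FPKM in PAL and 4.08 to 5.15 FPKM in control, and the endothelial sum was under 1 FPKM in every library. The part of these markers in the results was not tested. The heat-shock genes HSPA6 and HSPA1A were far lower in PAL libraries, so the high levels were those of the control group. The sources used here do not explain these control levels, and their cause was not tested. Groups were taken from the sample titles alone. A rise or fall below is relative to these control libraries and need not be a change from unstressed cells. HSPA6 stood at 20.7, 27.4 and 73.2 FPKM in PAL libraries 1 to 3, against 1999, 1960 and 1685 FPKM in control libraries 1 to 3. HSPA1A, which may share reads with its near-identical copy HSPA1B, stood at 48.8, 51.7 and 95.4 FPKM in PAL libraries, against 1364, 1414 and 1379 FPKM in control libraries. On HSPA6 the libraries numbered 3 lay nearest to the other group, and every limma result below was also computed leaving out both.

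Relative to control libraries with the heat-shock gene levels given above, 2 of the 9 genes rose in PAL cells. The adaptor FADD rose by 0.46 ± 0.056 and the receptor TNFRSF1A by 0.39 ± 0.031 (SE) on the log2(FPKM + 1) scale. Of the 9 genes, 8 passed the filter of at least 1 FPKM in at least 3 libraries, each of them in all 6 libraries, and CFLAR did not pass. By limma on log2(FPKM + 1), with Benjamini-Hochberg adjustment over all 12258 tested genes and a threshold of 0.05, 2 of the 8 were higher in PAL, where 11.4% of all tested genes were. None was lower (0 of 8), where 14.5% of all tested genes were, and 25.9% passed in either direction. In bulk RNA, fewer cells of a kind and less RNA per cell cannot be told apart. At an unadjusted p under 0.05, 3 were higher and 0 lower, against 18.8% and 20.7% of all tested genes. The same 3 were called higher and 0 lower by voom, limma's model of read counts, against 13.7% and 18.1% of all tested genes. These 3 are FADD, TNFRSF1A and CASP8, which are also the genes whose groups did not overlap, with PAL above control, as in 21.4% of all tested genes. The groups were apart with PAL below control for 0 of the 8, against 23.6% of all tested genes, and apart in either direction for 44.9% of them. The median difference of the 8 genes was 0.06 on that scale, 4 positive and 4 negative, beside 0.0043 over all tested genes.

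**Figure D1:**
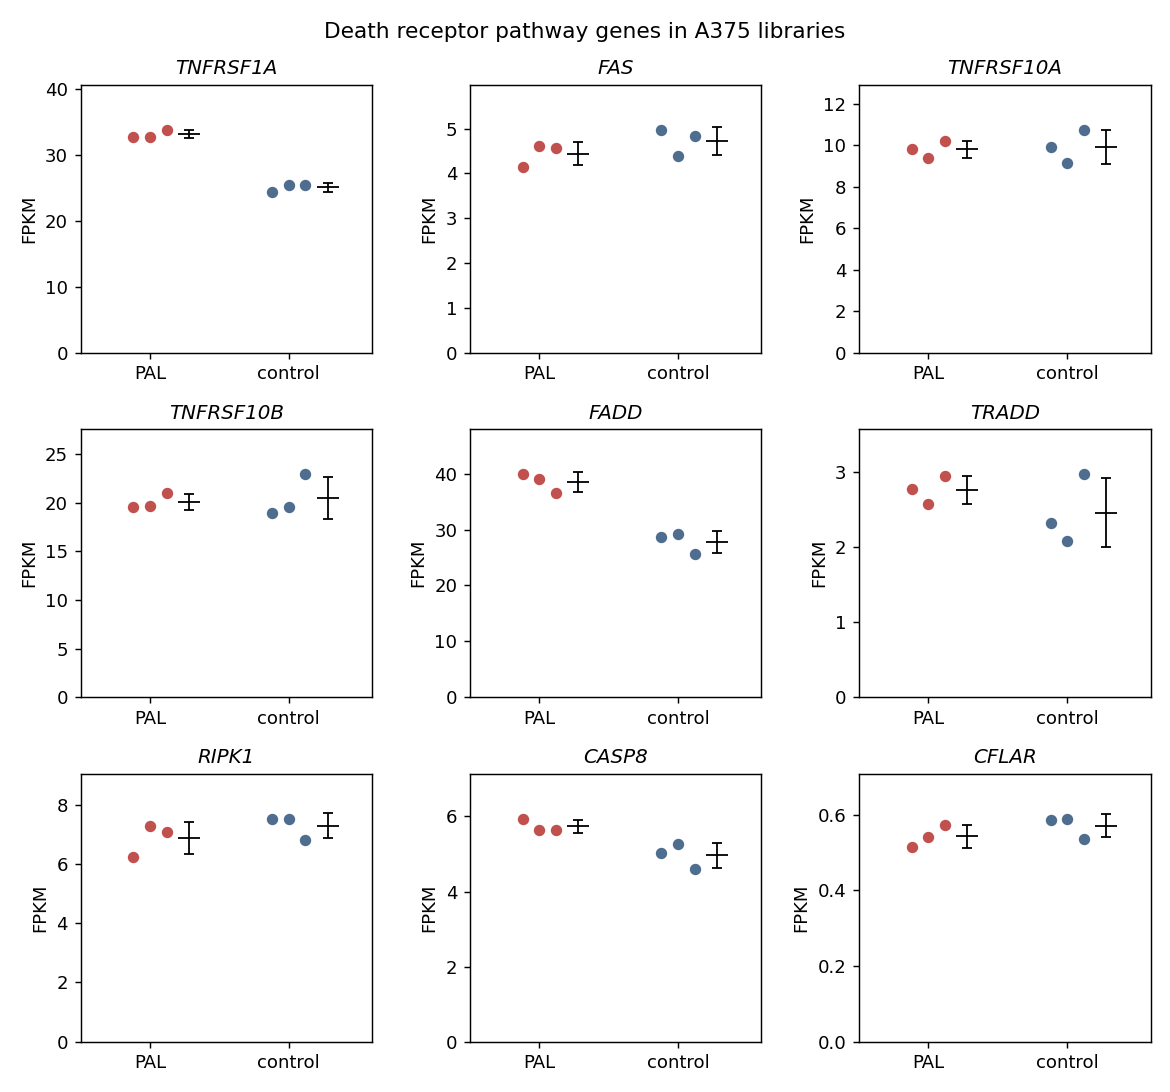
FPKM of each of the 9 genes in every library, with 3 PAL libraries left of 3 control libraries in each panel, a bar at the group mean, and a separate vertical axis per gene. The PAL points of FADD, TNFRSF1A and CASP8 lie above all control points, and in the other 6 panels the groups overlap.

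Among the receptors, TNFRSF1A, the main receptor of TNF on most cells (chromosome 12, 6328757 to 6342114, minus strand, ENSG00000067182), was at 32.78, 32.77 and 33.84 FPKM in PAL libraries 1 to 3, against 24.34, 25.50 and 25.39 FPKM in control libraries 1 to 3. Every PAL library exceeded every control library by more than the spread within either group. The means were 33.1 ± 0.616 FPKM in PAL and 25.1 ± 0.640 FPKM in control (SD, n = 3 each), a ratio of 1.32. The limma difference was 0.39 (95% interval 0.32 to 0.46) on the log2(FPKM + 1) scale, with an adjusted p of 2.91e-04, the smallest of the 8 tested. It rested on 2191 to 2497 reads per PAL library and 1513 to 1575 per control library. The coefficient of variation between libraries was 1.86% in PAL and 2.55% in control, close to the 2.06% and 2.55% that read counting alone gives. TNFRSF1A passed the threshold under all 19 alternative settings tried, at adjusted p-values of 3.68e-07 to 0.00507.

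The receptors of TRAIL, TNFRSF10A (DR4) and TNFRSF10B (DR5), are both on the minus strand of chromosome 8 (23190452 to 23225126 and 23020133 to 23069179). TNFRSF10A was at 9.82, 9.38 and 10.21 FPKM in PAL libraries and at 9.91, 9.13 and 10.76 FPKM in control libraries 1 to 3. TNFRSF10B was at 19.52, 19.67 and 20.98 FPKM in PAL libraries and at 18.92, 19.53 and 22.93 FPKM in control libraries 1 to 3. The groups overlapped for both genes, and in each group both genes were highest in library 3. TNFRSF10A differed by -0.02 ± 0.062 (SE; 95% interval -0.16 to 0.13) and TNFRSF10B by -0.02 ± 0.071 (-0.19 to 0.15), with limma adjusted p-values of 0.874 and 0.839. Neither difference has a settled sign, since both turned positive when libraries were scaled by plain read totals (0.06 for each), and neither passed the threshold under any alternative. TNFRSF10B exceeded TNFRSF10A by a factor of 2.05 ± 0.0554 in PAL and 2.06 ± 0.130 in control (SD, n = 3 each, FPKM ratio), and an exact two-sided permutation test over the 6 libraries gave p = 1.

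FAS, the receptor of FAS ligand (chromosome 10, 88990582 to 89015785, plus strand), was at 4.14, 4.61 and 4.57 FPKM in PAL libraries and at 4.98, 4.38 and 4.83 FPKM in control libraries 1 to 3. The groups overlapped, with control library 2 below 2 of the PAL libraries. Its difference was -0.07 ± 0.061 (SE; 95% interval -0.22 to 0.07) with a limma adjusted p of 0.405, on 324 to 358 reads per PAL library and 276 to 335 per control library.

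Of the adaptors, FADD, the death domain protein that joins FAS and the TRAIL receptors to caspase 8 (chromosome 11, 70203163 to 70207390, plus strand, ENSG00000168040), was at 39.95, 38.98 and 36.59 FPKM in PAL libraries, against 28.69, 29.15 and 25.60 FPKM in control libraries 1 to 3. The groups were apart, and library 3 was the lowest of each group. The ratio of the group means was 1.38, and the difference on the log2(FPKM + 1) scale was 0.46 (95% interval 0.32 to 0.59) with a limma adjusted p of 0.00205. The reads behind it numbered 1198 to 1353 per PAL library and 730 to 836 per control library. FADD passed the threshold under all 19 alternatives, with differences of 0.40 to 0.54 and adjusted p-values of 7.38e-06 to 0.0130.

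An antisense gene, AP000879.1, lies with all of its 1011 exon bases inside the exons of FADD on the opposite strand, where they cover 54.9% of FADD's exon bases. The sources used here do not say whether reads were counted by strand, and without strand the reads of these 2 genes cannot be told apart. AP000879.1 was at 6.24, 4.98 and 3.22 FPKM in PAL libraries, against 3.12, 2.14 and 2.81 FPKM in control libraries 1 to 3, a difference of 0.63 ± 0.20 (SE) with a limma adjusted p of 0.0572 that ranged from 0.0130 to 0.167 over 17 alternatives. PAL library 3 stood close to the highest control library, although the groups did not overlap. Its 60 to 116 reads per PAL library and 32 to 50 per control library are few beside those of FADD. By position, TNFRSF1A and CASP8 shared 0 exon bases with any annotated gene. By sequence, in stretches of at least 50 bases at 98% identity or more, 0 bases of the longest coding transcript of TNFRSF1A and 64 bases (2.18%) of that of CASP8 matched transcripts of other genes. Exons on the opposite strand overlapped smaller shares of the other genes: ACTA2 8.93% of FAS, TNFRSF10A-AS1 7.59% and AC100861.1 9.01% of TNFRSF10A, RHOBTB2 1.30% of TNFRSF10B, FBXL8 4.91% of TRADD, AL031963.3 5.63% of RIPK1, and IMPDH1P10 6.60% and CFLAR-AS1 3.45% of CFLAR. On the same strand, AC007283.1, listed at 0 in all 6 libraries, lies within CFLAR exons over 445 bases (1.98% of CFLAR). The values of these genes are uncertain to that extent.

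The stretches upstream of FADD and TNFRSF1A are printed because these 2 genes rose. They come from the RefSeq promoter table for GRCh38.p14 and end just before the first base of the gene in GENCODE release 29. The GENCODE start set the cut, so they need not reach the RefSeq start. The FADD stretch is chr11:70203046-70203162 on the plus strand and that of TNFRSF1A chr12:6342115-6342326 on the minus strand. Each is read 5′ to 3′ on the gene's strand. Capitals mark a GC box, GGGCGG on either strand.
FADD: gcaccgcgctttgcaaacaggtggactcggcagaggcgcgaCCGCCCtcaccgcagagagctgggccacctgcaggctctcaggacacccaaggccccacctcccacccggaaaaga
TNFRSF1A: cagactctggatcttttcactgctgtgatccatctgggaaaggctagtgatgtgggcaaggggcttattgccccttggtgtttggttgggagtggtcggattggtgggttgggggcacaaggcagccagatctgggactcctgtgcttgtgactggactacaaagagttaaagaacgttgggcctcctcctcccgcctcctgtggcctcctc
The 117 bases before FADD are 67.5% G or C and hold 1 GC box, where 20.2% of 35116 promoter windows of that length hold at least 1. Each window was the upstream end of a promoter entry, not the bases next to a gene's start. The 212 bases before TNFRSF1A are 56.1% G or C and hold 0, where 37.7% of windows of that length hold at least 1. Searched on both strands, the AP-1 letters TGANTCA, the heat shock element letters GAANNTTC, the E-box CACGTG and the cyclic AMP response element TGACGTCA had 0 matches in both stretches. The shares of windows of the same length with such a match were 2.87%, 2.82%, 2.21% and 0.288% at the length of the FADD stretch, and 5.71%, 4.86%, 5.15% and 1.22% at that of TNFRSF1A. These are letter matches in short windows and say nothing of binding.

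TRADD, the adaptor of TNFRSF1A (chromosome 16, 67154180 to 67160298, minus strand), was at 2.77, 2.57 and 2.94 FPKM in PAL libraries and at 2.31, 2.08 and 2.97 FPKM in control libraries 1 to 3. Control library 3 was the highest of the 6, so the groups overlapped. The difference was 0.13 ± 0.10 (SE; 95% interval -0.11 to 0.37) with a limma adjusted p of 0.379. TRADD had the fewest reads of the 8 tested genes, 110 to 139 per PAL library and 79 to 118 per control library, and its coefficient of variation was 6.76% in PAL and 18.8% in control, beside 8.93% and 10.3% from counting alone. On the log2(FPKM + 1) scale, which understates the change of low genes, a difference the size of TNFRSF1A's lies just outside TRADD's interval. By voom, on a log2 scale of reads relative to library size, TNFRSF1A's difference of 0.40 lies inside TRADD's 95% interval of -0.13 to 0.50.

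RIPK1, the kinase that sits at the branch between NF-kappaB signalling and cell death (chromosome 6, 3063991 to 3115187, plus strand), was at 6.24, 7.26 and 7.08 FPKM in PAL libraries and at 7.53, 7.53 and 6.81 FPKM in control libraries 1 to 3. PAL library 1 was the lowest of the 6 and the groups overlapped. The difference was -0.08 ± 0.065 (SE; 95% interval -0.23 to 0.08) with a limma adjusted p of 0.420, on 486 to 552 reads per PAL library and 446 to 504 per control library.

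CASP8, the initiator caspase of this route (chromosome 2, 201233443 to 201287711, plus strand, ENSG00000064012), was at 5.94, 5.63 and 5.64 FPKM in PAL libraries, against 5.03, 5.26 and 4.61 FPKM in control libraries 1 to 3. All 3 PAL values were above all 3 control values. The means were 5.74 ± 0.177 FPKM in PAL and 4.97 ± 0.329 FPKM in control (SD, n = 3 each), a ratio of 1.16. The difference of 0.18 ± 0.054 (SE; 95% interval 0.05 to 0.31) missed the threshold with a limma adjusted p of 0.0518. It passed under 7 of 19 alternatives, among them voom on the recovered reads (0.0172), plain read totals (0.0144) and protein-coding genes alone (0.0339), and the adjusted p ranged from 0.0144 to 0.149 over the 19. Plain totals also called 25.3% of all tested genes higher and voom 13.7%.

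CFLAR, the inhibitor (chromosome 2, 201116104 to 201176687, plus strand), was at 0.514, 0.542 and 0.573 FPKM in PAL libraries and at 0.586, 0.590 and 0.536 FPKM in control libraries 1 to 3. The groups overlapped. It had 204 to 238 reads per PAL library and 187 to 209 per control library, more than TRADD, and its low FPKM comes with a deposited length of 22529 bases over 25 annotated transcripts. In a voom fit of genes with at least 10 reads in at least 3 libraries, added after seeing the data, its difference was -0.07 ± 0.099 (SE; 95% interval -0.28 to 0.14) on voom's log2 scale of reads relative to library size, with an adjusted p of 0.649. The isoforms of c-FLIP cannot be told apart in a sum per gene.

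**Figure D2:**
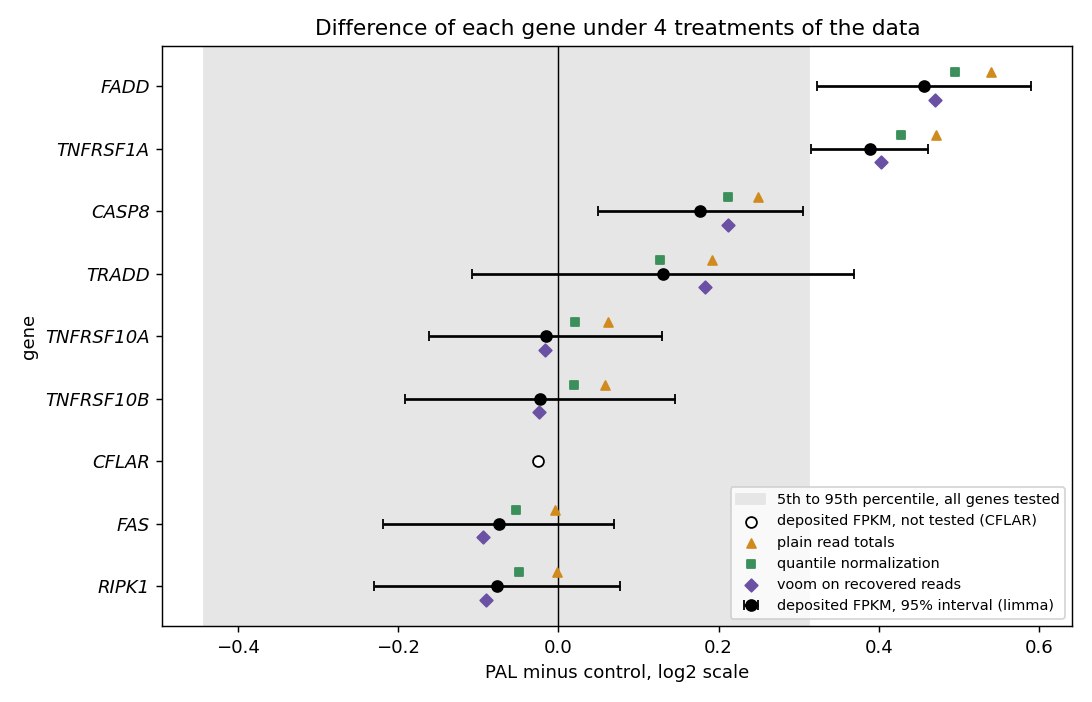
Difference of each of the 9 genes in log2 units, positive where PAL is higher: black points with 95% intervals for limma on the deposited FPKM, coloured points for plain read totals, quantile normalization and voom, an open point for the untested CFLAR, and a grey band from the 5th to the 95th percentile of all tested genes (-0.44 to 0.31). The band comes from limma on the deposited FPKM alone, and the other treatments have their own spread, which is not drawn. All points of FADD and TNFRSF1A lie beyond this band, while the points of TNFRSF10A and TNFRSF10B fall on both sides of 0.

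Because CFLAR and CASP8 compete for the same adaptor, their levels were also set against each other within each library, where the scaling between libraries cancels. The FPKM ratio of CFLAR to CASP8 was 0.0865, 0.0963 and 0.102 in PAL libraries, against 0.116, 0.112 and 0.116 in control libraries 1 to 3. All PAL ratios were below all control ratios, with a mean of 0.0948 ± 0.00769 in PAL and 0.115 ± 0.00235 in control (SD, n = 3 each), a log2 difference of -0.28. The exact two-sided permutation p was 0.1, the smallest that 3 against 3 libraries allow, so this test cannot pass 0.05. In recovered reads the ratio was 0.295 ± 0.0239 in PAL and 0.358 ± 0.00732 in control. The FPKM ratio of FADD to CASP8 was 6.71 ± 0.219 in PAL and 5.60 ± 0.0867 in control, with the same exact p of 0.1, and its groups did not overlap. This ratio was not planned. It restates the larger difference of FADD beside that of CASP8 and is no separate result.

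By FPKM, a level per length, the 9 genes had 1 order in both groups: FADD, TNFRSF1A, TNFRSF10B, TNFRSF10A, RIPK1, CASP8, FAS, TRADD and CFLAR. Neighbours in it did not overlap over their 3 libraries, except CASP8 and FAS in control, at 4.61 to 5.26 and 4.38 to 4.98 FPKM. Among the 12258 tested genes ranked by mean FPKM, FADD stood at place 1186 in PAL and 1756 in control, and TNFRSF1A at 1412 in PAL and 1959 in control. The order depends on the length used. With the longest protein-coding transcript in place of the deposited length, an alternative added after seeing the data, TNFRSF1A came first, at 59.7 in PAL and 45.2 in control, above FADD at 38.5 in PAL and 27.8 in control. CASP8 then stood above TNFRSF10A, at 14.2 in PAL and 12.3 in control, and CFLAR stayed last, at 0.834 in PAL and 0.876 in control. The longest protein-coding transcript of CFLAR is itself 14672 bases, against 1877 for TRADD. CFLAR had more reads than TRADD, so its last place depends on these lengths.

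**Figure D3:**
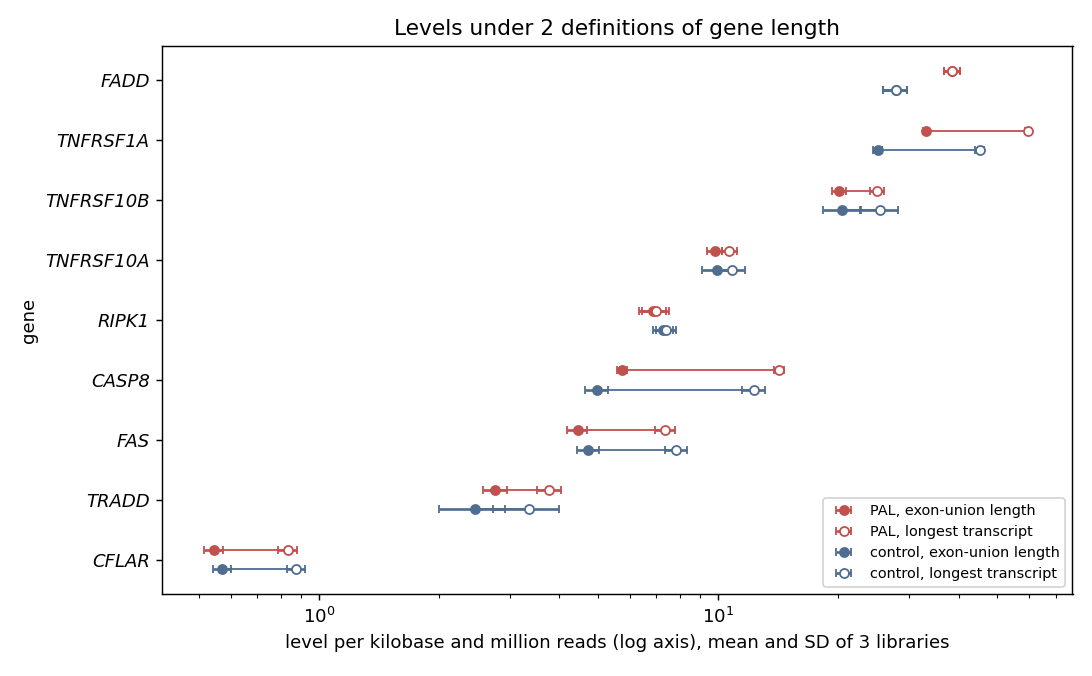
Level of each of the 9 genes per length on a log axis, PAL above control for each gene, with the deposited gene length and with the longest protein-coding transcript. FADD and TNFRSF1A lead with either length, and CASP8 moves up with the transcript length. CFLAR, long by both definitions (22529 and 14672 bases), is last with either.

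The genes whose profile over the 6 libraries was most like that of TNFRSF1A, by the root mean square difference of centred log2(FPKM + 1) over 6413 genes compared, were HYAL2 at 0.0144, RANBP6 at 0.0185 and ITPRIPL2 at 0.0340. Their own differences were 0.40, 0.38 and 0.36 on that scale, a likeness to TNFRSF1A that follows from how they were picked.

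The ligands of these receptors were at or near 0 in A375 cells. FASLG (FAS ligand) and TNFSF10 (TRAIL) had 0 reads in all 6 libraries, and a count of 0 allows up to 0.0297 and 0.0161 FPKM over the PAL libraries and 0.0344 and 0.0187 FPKM over the control libraries (3 reads per group, counting error only). TNF had 19 reads over the PAL libraries and 18 over the control libraries, LTA (lymphotoxin alpha) 10 over PAL and 4 over control libraries, and TNFSF15, a ligand of TNFRSF25, 0 over PAL and 9 over control libraries. None of the 5 passed the filter.

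Of 9 other death, decoy and TNF receptors, 5 were tested, and 1 rose by limma while 0 fell (2 and 0 at an unadjusted p under 0.05, 1 and 0 by voom), where limma called 11.4% of all tested genes higher and 14.5% lower. It was TNFRSF25 (DR3), a receptor that like TNFRSF1A uses TRADD, at 5.56, 5.52 and 5.99 FPKM in PAL libraries, against 3.72, 3.77 and 4.52 FPKM in control libraries 1 to 3. The groups did not overlap, and the difference was 0.42 with an adjusted p of 0.00720. The median of the 5 was 0.03.

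Of 6 other caspases tested, 1 had a positive and 5 a negative difference, with a median of -0.16. CASP9, the initiator of the mitochondrial route, averaged 1.78 ± 0.149 FPKM in PAL and 2.32 ± 0.237 FPKM in control (SD, n = 3 each). All its PAL values were below all control values. The difference of -0.25 missed the threshold with a limma adjusted p of 0.0508, which ranged from 0.0189 (by voom) to 0.167 over 18 alternatives.

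All 20 genes chosen for a list of the ubiquitin and kinase arm of TNF receptor signalling were tested. Of these 20, 2 rose and 8 fell, with a median of -0.08. Without BIRC3, which passed the filter through control alone, 2 of 19 rose and 7 fell, with a median of -0.06. Beside them 11.4% of all tested genes rose and 14.5% fell. SHARPIN, a subunit of the ligase of linear ubiquitin chains, averaged 11.2 ± 0.719 FPKM in PAL and 8.85 ± 0.158 FPKM in control, and XIAP, an inhibitor of caspases, 5.14 ± 0.116 FPKM in PAL and 4.16 ± 0.175 FPKM in control (SD, n = 3 each). Both rose, by 0.31 and 0.25, with limma adjusted p-values of 0.00538 and 0.00940. TNFAIP3 (A20), CYLD and OTULIN take ubiquitin chains apart and SPATA2 tethers CYLD to the complex, and they differed by -2.48, -0.44, -0.31 and -0.62. BIRC3 (cIAP2), a ubiquitin ligase, averaged 0.773 ± 0.083 FPKM in PAL and 2.10 ± 0.691 FPKM in control (SD, n = 3 each). TAB3, a partner of the kinase MAP3K7 (TAK1), MAP3K7 itself and the kinase CHUK (IKK alpha) differed by -0.23, -0.14 and -0.20. OTULIN missed the threshold (limma adjusted p 0.0550) when both libraries numbered 3 were left out, CHUK was called under 15 and MAP3K7 under 7 of 19 alternatives. Without both libraries numbered 3, the list of 20 held 2 rises and 5 falls, where 7.66% of all tested genes rose and 10.9% fell.

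Of 12 modulators of the receptor complex, 1 rose and 2 fell by limma, which is near the 11.4% and 14.5% of all tested genes. DEDD2, a death effector domain protein, was at 9.86, 9.52 and 9.84 FPKM in PAL libraries, against 37.3, 37.1 and 46.4 FPKM in control libraries 1 to 3, a difference of -1.94 with an adjusted p of 2.39e-05. PEA15, another death effector domain protein, averaged 132 ± 4.51 FPKM in PAL and 151 ± 8.53 FPKM in control, and DAXX, a nuclear protein first found as a FAS partner, 24.8 ± 0.931 FPKM in PAL and 22.7 ± 0.533 FPKM in control (SD, n = 3 each). The differences were -0.19 for PEA15 and 0.12 for DAXX, with limma adjusted p-values of 0.0220 and 0.0473. PEA15 was called under 11 and DAXX under 8 of 19 alternatives, and without both libraries numbered 3 only DEDD2 remained, with 0 rises. TICAM1 (TRIF), which links toll-like receptors to RIPK1, was 1 of 2 tested genes of 4 in the necroptosis list. It fell by 0.77, at 5.18 ± 0.343 FPKM in PAL and 9.67 ± 1.87 FPKM in control (SD, n = 3 each), with a limma adjusted p of 0.00477. RIPK3, the kinase of necroptosis, had 0 reads in all libraries. APAF1, which activates caspase 9, was the only call among 4 tested genes of the mitochondrial list, at 3.59 ± 0.297 FPKM in PAL and 4.84 ± 0.393 FPKM in control (SD, n = 3 each), a difference of -0.35 with a limma adjusted p of 0.0144 that became 0.0511 without PAL library 2.

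**Figure D4:**
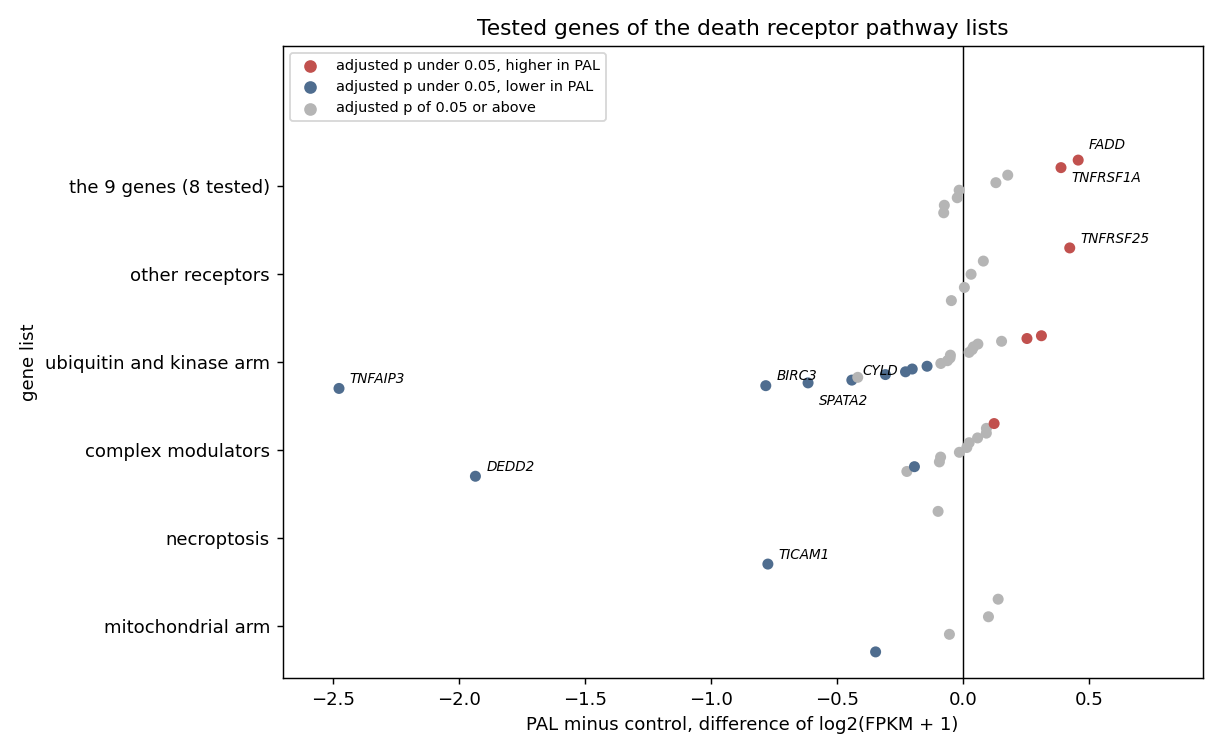
Difference of log2(FPKM + 1) between PAL and control, positive where PAL is higher, for the 8 tested genes of the 9 and for the tested genes of 5 further lists of the death receptor pathway, with limma calls at an adjusted p under 0.05 in colour. Calls among the 8 tested genes are to the right of 0, and most calls of the ubiquitin and kinase list are to the left.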

How the data were processed

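The FPKM values are as deposited by the authors, 1 per gene and library with gene length and position, per the file headers. The submitters' processing notes name the build hg38, and the labels' protocols name poly-A enrichment. No aligner, counter or strand setting is given in the sources used here. Groups come from the sample titles. All values above 0 were whole numbers of reads (within 0.01) after multiplying by length and library step, so reads per gene were recovered. The library size behind the FPKM was 1.04 to 1.05 of the assigned reads in PAL libraries and 0.980 to 0.984 in control libraries. Set against median-of-ratios size factors of the recovered reads, it was 0.9993 to 1.0008 over the 6 libraries. The deposited FPKM thus followed those factors and not plain read totals.

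Genes with at least 1 FPKM in at least 3 libraries (12258) were tested with limma 3.58.1 in R 4.3.3 on log2(FPKM + 1), with a variance trend, two-sided, adjusted over all genes. A difference on this scale understates the change of low genes. The code was tested on simulated data. The 9 genes and the pathway lists were chosen with earlier results of these data known, and the text names the 9 genes, every called list member (the highest where none was called) other than among the other caspases, whose calls are not reported here, the 3 genes of at least 5 mean FPKM nearest in profile to the gene with the smallest adjusted p, genes whose exons overlap the 9, and HSPA6 and HSPA1A. CASP9, RIPK3 and the other ligands were added after their values were seen. The ratios of FADD to CASP8 and of TNFRSF10B to TNFRSF10A were not planned beforehand. Exon overlaps come from GENCODE release 29, and sequences from RefSeq, where 6 of the 9 genes had an entry. Alternatives were the pseudocount (0.1, 0.5), filters, scalings, protein-coding genes alone, the variance model, voom, the replicate block and leaving out libraries. No library repeated another: chi-square per degree of freedom was at least 2.02 for replicates of 1 group.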

Additional observations from a re-analysis of the deposited data

How the results depend on the processing

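FADD and TNFRSF1A were called higher under all 19 alternatives, and 0 of the 9 genes were called lower under any that tested them. CFLAR was tested under only 2 of the 19. Without PAL library 2, 688 of 12258 tested genes were called higher and 1167 lower. Under plain read totals, 3097 were higher and 1130 lower. The count of all genes called, 3179, was 2103 with no filter on low values and 1855 to 2789 on leaving out 1 library at a time. The difference of TNFRSF10A (-0.02) was 0.0621 under plain read totals, 0.0527 under TPM, 0.0214 under quantile normalization, 0.0115 without both libraries numbered 3 and -0.0695 to 0.0385 on leaving out 1 library. That of TNFRSF10B (-0.02) was 0.0583, 0.0463, 0.0203, 0.0264 and -0.0744 to 0.0578 under the same settings. The cause was not tested.

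Of all genes called, 44.0% were higher in PAL, against 73.3% under plain read totals, 69.7% under TPM and 59.2% under quantile normalization. The median of all genes moved by under 0.1 in each. Replicate numbers did not pair the samples (correlations of same-numbered deviations -0.0239, 0.0273 and -0.0447). With the number as a replicate block, 2131 of 12258 tested genes were called, 838 higher and 1293 lower. Of the 8 tested genes among the 9, 2 were higher and 0 lower.

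TRADD, with 79 to 139 reads per library, has the widest interval of the 8 tested genes, and CFLAR is too low in FPKM for the main test.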
